A study of Mus musculus with 3 samples.

Results

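The genes described here are 8 members of the S100 family, S100a1, S100a4, S100a6, S100a8, S100a9, S100a13, S100a16 and S100b, chosen by their symbols from the 56748 genes of the count table. RNAseq was performed on wild-type adult mouse cardiomyocytes (ACMs) from mice 8 to 10 weeks of age. The cells were plated for 3 to 4 h and treated in serum-free medium for 16 h with vehicle, 10 ng/mL mouse oncostatin M (OSM) or 10 ng/mL human IL-6. All 3 conditions had 0.1% BSA and 10 mM BDM, an inhibitor of contraction, in the medium. RNA samples were pooled, so that each condition is 1 library with no replicate spread, and the values below compare libraries. The design addressed which genes are raised by OSM, which the paper treats as putative effectors of signaling through the kinase JAK1. No library had JAK1 removed or inhibited, so dependence of any gene on JAK1 was not tested here.

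S100 proteins are small calcium-binding proteins that mostly work as dimers. They carry EF-hand motifs, the helix-loop-helix fold that also binds calcium in troponin C. On binding calcium they expose a surface that docks onto partner proteins, and some are released and act on cell-surface receptors such as RAGE, encoded by Ager, and TLR4. In the heart S100A1 is the cardiomyocyte member, known to act on the ryanodine receptor and on the SERCA2a calcium pump. S100A8 and S100A9 form calprotectin of neutrophils and monocytes, S100A4 is a protein of fibroblasts and immune cells, and S100B is best known from glia.

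The cells carried cardiomyocyte RNA in all 3 libraries. Of 10 cardiomyocyte markers 10 were detected, with a summed level of 33280 CPM (counts scaled to the library total) with vehicle, 34452 with IL-6 and 40647 with OSM. Library totals were 24939980 to 30773001 counts. Socs3, a feedback inhibitor of JAK-STAT signaling, had 670 counts with vehicle, 646 with IL-6 and 18194 with OSM. Some properties of the counts touch every value below. Low counts were more often even than odd: among genes with 1 to 9 counts, 60.2% to 63.1% had an even count, against 49.3% to 51.4% among genes with 100 to 299 counts. The reads were paired, and counting the mates of a pair apart gives even counts. If a fragment gave 2 counts, the counting intervals are too narrow, and a wider interval with the counts divided by 2 is therefore given wherever it changes a reading. Short genes also stood higher in the OSM library, as described with the ratios.

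S100a1 far exceeded the other members, and 4 members were at or near 0, with too few counts for a ratio. Of the 4 members with a ratio, 0 had a counting interval wholly beyond 2-fold between any pair of libraries. With OSM against vehicle, 3.74% of all genes compared had such an interval on the higher side and 5.43% on the lower side. S100a1 had 9310 counts with vehicle, 9726 with IL-6 and 17160 with OSM. Per length, its level was 530 FPKM with vehicle, 517 FPKM with IL-6 and 828 FPKM with OSM, which placed it at rank 59, 60 and 54 among all genes. The OSM library was highest, and the other libraries lay close together. S100a1 made up 95.4% of the summed FPKM of the 8 members with vehicle, 94.8% with IL-6 and 94.6% with OSM.

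S100A13 takes part in the release of FGF1 from cells, a route that bypasses the secretory pathway. S100a13 had 266 counts with vehicle, 369 with IL-6 and 654 with OSM, or 14.7, 19.0 and 30.6 FPKM. Its order was vehicle, IL-6, OSM, with 95% Poisson intervals of up to 16.6 FPKM, 17.2 to 21.1 FPKM and 28.3 to 33.1 FPKM that did not overlap. With the counts divided by 2, the intervals of vehicle, to 17.4 FPKM, and IL-6, from 16.4 FPKM, did overlap. S100a16, a broadly expressed member, had 411 counts with vehicle, 370 with IL-6 and 786 with OSM, or 10.0, 8.44 and 16.3 FPKM. The OSM library stood above the others, and the vehicle and IL-6 intervals overlapped, at 9.10 to 11.1 FPKM and 7.61 to 9.35 FPKM.

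S100A6, also called calcyclin, is a protein of proliferating cells and fibroblasts. S100a6 had 23 counts with vehicle, 26 with IL-6 and 28 with OSM, or 0.665, 0.702 and 0.686 FPKM, and its intervals overlapped in all 3 libraries. S100a8 had 2 counts with vehicle, 0 with IL-6 and 2 with OSM, which may be a single read pair in each. S100a4, S100a9 and S100b had 0 counts in each library. A count of 0 allows a level of up to 3 counts, or 6 counts if every fragment gave 2. For 3 counts the limit was 0.172 to 0.203 FPKM for S100a4, 0.192 to 0.227 FPKM for S100a9 and 0.0677 to 0.0799 FPKM for S100b. These members were not detectable at this depth.

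**Figure D1:**
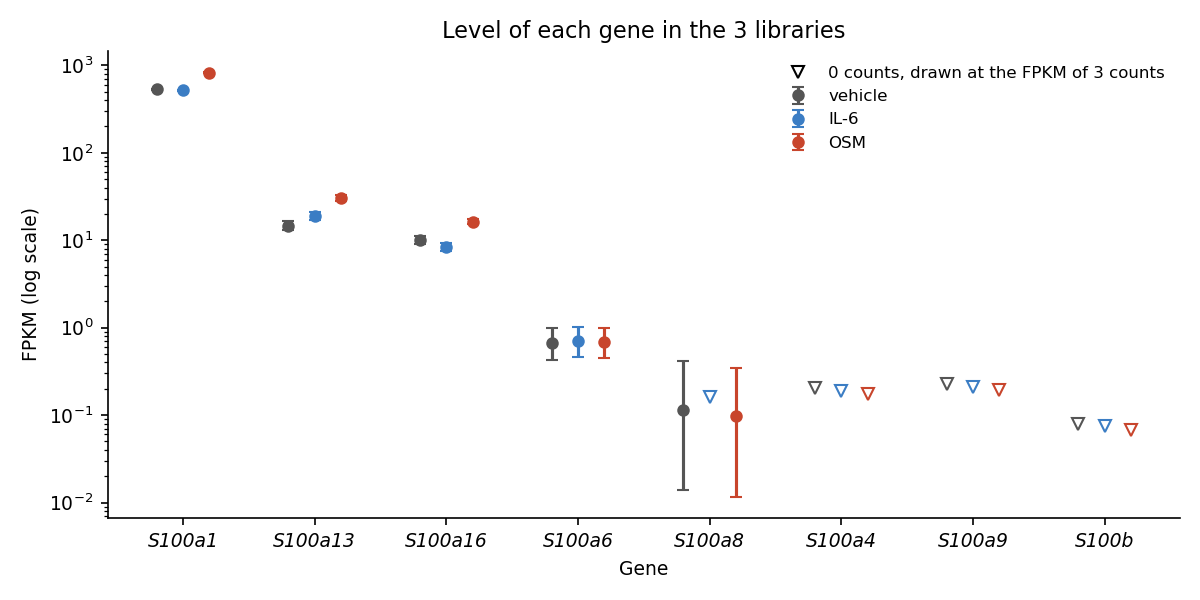
FPKM (log axis) of each of the 8 genes in the vehicle, IL-6 and OSM libraries, with 95% Poisson intervals of the count, and open triangles at the FPKM of 3 counts where the count was 0. S100a1 lay between 517 and 828 FPKM, S100a13 and S100a16 between 8.44 and 30.6 FPKM, and S100a6 below 1 FPKM.

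The order of the levels was S100a1, S100a13, S100a16, S100a6 and S100a8 or the undetected members in every library. Neighbours from S100a1 to S100a6 had intervals that did not overlap. S100a8 could not be told apart from the members at 0 counts, nor from S100a6 with the counts divided by 2. The order of S100a13 and S100a16 depends on gene length, 715 and 1617 bases in the authors' annotation. Per length S100a13 stood higher. By CPM S100a16 did with vehicle, at 16.5 against 10.7 CPM, and with OSM, at 25.5 against 21.3 CPM. With IL-6 they were level, at 370 counts for S100a16 and 369 for S100a13. On the FPKM scale S100a1 exceeded S100a13 by 36.1-fold with vehicle (95% interval 31.9 to 40.9), 27.2-fold with IL-6 (24.5 to 30.2) and 27.0-fold with OSM. Set beside Tnnc1, which encodes troponin C, the S100a1 level was 0.411 of it with vehicle, 0.386 with IL-6 and 0.405 with OSM.

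Of the members described here, 7 map within a stretch of mouse chromosome 3 and S100b lies on chromosome 10 at chr10:76089687-76096993 (GRCm39, from the authors' annotation, as for the positions that follow). S100a1 lies at chr3:90418341-90421699 on the minus strand and S100a13 at chr3:90421742-90431888 on the plus strand. Their starts face away from each other across 42 bases. S100a16 follows at chr3:90444561-90450458, then S100a4 at chr3:90511078-90513352, S100a6 at chr3:90520189-90531488, S100a8 at chr3:90576285-90577342 and S100a9 at chr3:90599939-90603028. Levels differed along this order. S100a1, S100a13 and S100a16 lay at the end next to Chtop, Snapin and Ilf2, which were also expressed, at 4.60 to 35.1 FPKM. Beyond S100a16 no S100 gene of the cluster exceeded 1 FPKM. S100a11, which also lies on chromosome 3 but outside this stretch, was at 7.22 to 41.3 FPKM. In the order along the chromosome, S100a14, between S100a13 and S100a16, had 0 counts in each library, as did S100a2, S100a3, S100a5 and S100a7a.

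**Figure D2:**
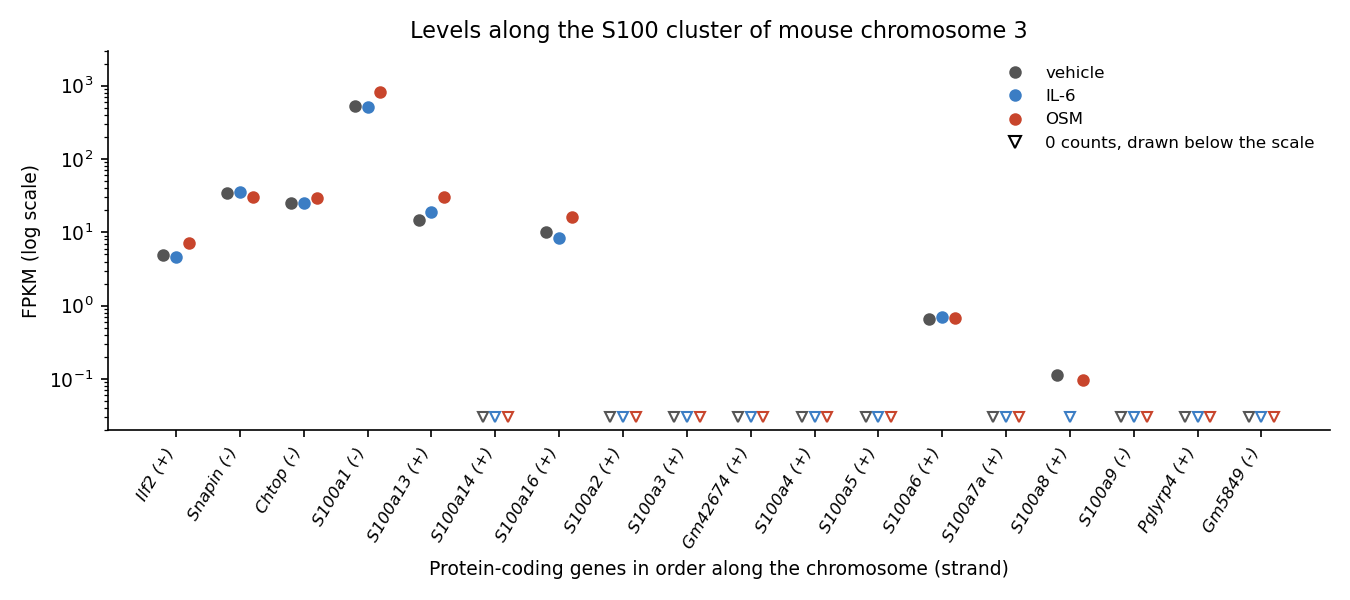
FPKM (log axis) of the protein-coding genes in their order along the S100 cluster of chromosome 3 in the 3 libraries, with the strand in brackets and open triangles for 0 counts. The genes up to S100a16, with the exception of S100a14, were expressed at 4.60 to 828 FPKM, and the later ones lay below 1 FPKM or at 0 counts.

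Overlap with neighbours limits some of these values. In the GENCODE M39 annotation, which is not the authors' own, longer transcripts of S100a1 and S100a13 run into each other, and 89.2% of the exonic bases of S100a1 and 57.5% of those of S100a13 are shared with genes on the opposite strand. In the authors' table the genes themselves do not overlap. Whether reads were counted by strand is not given in the sources used here, so reads from the shared bases could belong to either gene. S100a4 shares 33.3% of its exonic bases with Gm42674 on the same strand, and reads there could be left uncounted as ambiguous. Gm42674 also had 0 counts. None of the 8 members had a copy elsewhere in the genome at 97% identity or more.

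The 30 bases from 40 to 11 before the RNA start are shown for the divergent pair S100a1 and S100a13, which were expressed, and for S100a4 and S100a8, which had 0 to 2 counts. Sequences come from the RefSeq promoter table, built on GRCm38.p6, and were placed in GRCm39 by exact match. Capitals mark TATAAA, the TATA box letters, and each is written 5′ to 3′ on the strand of its gene.
S100a1, chr3:90421648-90421677, minus strand: tcctggcccttagccctttgggtgtcgttt
S100a13, chr3:90421702-90421731, plus strand: ccaggagggaaggggctgtcctgtgtttct
S100a4, chr3:90511037-90511066, plus strand: ctggcagggTATAAAtaggtcagattgttg
S100a8, chr3:90576338-90576367, plus strand: agctttcctcTATAAAagcagctgacactt
TATAAA began 31 bases before the start in S100a4 and 30 bases before it in S100a8. All 8 members had an entry in the table, and these promoters of 300 bases were searched on both strands, from 250 bases before to 50 after the start. No TATAAA was found in those of S100a1, S100a13, S100a16, S100a6 and S100b, and S100a9 had a match at the start itself. Over 32544 promoters of this length 13.6% held TATAAA. The STAT letters TTCNNNGAA, in 8.33% of promoters, and the C/EBP letters TTGCGNAA, in 0.805%, were found in no promoter of the 8 members. In the S100a4 window no exon of the gene is annotated by GENCODE M39, while the windows of S100a1, S100a13 and S100a8 overlap an annotated exon of the same gene. Between the RefSeq starts of S100a1 and S100a13 lie 104 bases (chr3:90421638-90421741) with 58.7% G or C.

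With OSM against vehicle, 4 of the 8 members had the 10 counts over the pair needed for a ratio, and 0 were called higher and 0 lower, where a call means that the whole 95% counting interval lies beyond 2-fold. Over all 15537 genes compared, 3.74% were called higher and 5.43% lower. S100a1 had a log2 ratio of counts scaled by trimmed mean of M values (TMM) of 0.64 (95% interval 0.60 to 0.68), or 1.56-fold. S100a13 stood highest among the members at 1.06 (0.85 to 1.27), or 2.08-fold, and its interval crossed 2-fold. S100a16 was at 0.69 (0.52 to 0.87), or 1.62-fold. S100a6 was at 0.04 (-0.81 to 0.90), an interval too wide to place it. The S100a1, S100a13 and S100a16 intervals stayed above 0 with the counts divided by 2. The median log2 ratio of the 4 members was 0.67, and that of all genes compared was 0.00459.

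Gene length moved with these ratios. Protein-coding genes were split by length into 10 classes of about equal size, and the median log2 ratio of OSM against vehicle fell from 0.47 in the shortest class, up to 1814 bases, to -0.58 in the longest. All 4 members with a ratio lie in the shortest class. Against its median, S100a1 stood 0.17 higher (0.13 to 0.21) on the log2 scale, S100a16 0.22 higher (0.05 to 0.40) and S100a13 0.58 higher (0.38 to 0.80). With the counts divided by 2, the S100a16 ratio had an interval of 0.45 to 0.94, which included the class median of 0.47. S100a6 was 0.43 lower (difference -0.43, interval -1.28 to 0.43), not distinguishable from that median. The S100a1 ratio exceeded those of 67.4% of the genes in that class, S100a16 exceeded 70.6% and S100a13 86.4%. The part of gene length in the members' ratios was not tested.

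**Figure D3:**
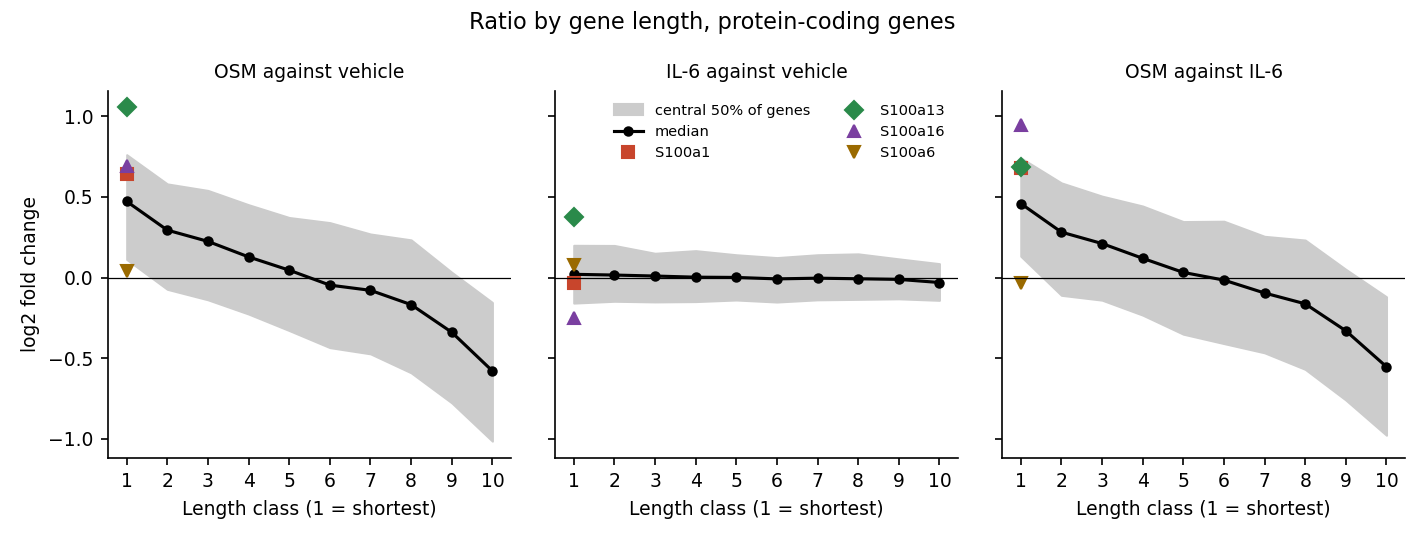
Median log2 ratio (line) and the range of the central 50% of protein-coding genes (grey) in each of the 10 classes of gene length, for the 3 pairs of libraries, with S100a1, S100a13, S100a16 and S100a6 as points in the shortest class. With OSM the median fell from 0.47 to -0.58 against vehicle, and S100a13 lay above the grey band at 1.06, while IL-6 against vehicle showed medians between -0.03 and 0.02.

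The members did not share 1 ratio. S100a13 exceeded S100a1 by 0.42 on the log2 scale with OSM against vehicle (interval of the difference 0.21 to 0.62). The difference of S100a16 from S100a1 was 0.05 (-0.12 to 0.23) and was not distinguishable from 0. S100a13 exceeded S100a16 by 0.36 (0.09 to 0.63), and with the counts divided by 2 this interval reached -0.02. The divergent pair S100a1 and S100a13 both stood higher with OSM than with vehicle, by unequal amounts. The difference between them was 0.41 with IL-6 against vehicle too, and 0.01 (-0.18 to 0.19) with OSM against IL-6.

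With IL-6 against vehicle, 4 of 8 members had a ratio, and 0 were called higher and 0 lower. Over the 15472 genes compared 1.77% were called higher and 1.74% lower, and with the counts divided by 2 these fell to 0.278% and 0.427%. S100a1 was at -0.04 (-0.08 to 0.00447) on the log2 scale. S100a13 was at 0.37 (0.14 to 0.61), or 1.29-fold, an interval above 0 that also stayed above 0 with the counts divided by 2, at 0.04 to 0.71. S100a16 was at -0.25 (-0.46 to -0.05), and with the counts divided by 2 its interval of -0.55 to 0.04 included 0. S100a6 was at 0.08 (-0.79 to 0.95). The median of the members was 0.02, beside a median of 0.02 in the shortest class of genes. S100a13 exceeded S100a1 here by 0.41 (0.18 to 0.64).

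With OSM against IL-6, which uses the same OSM library, 4 of 8 members had a ratio, and 0 were called higher and 0 lower, beside 4.24% and 5.42% of 15544 genes. S100a16 stood highest at 0.95 (0.77 to 1.13), or 1.93-fold. The difference of S100a13 from S100a16 was -0.26 (-0.52 to -0.01), and with the counts divided by 2 this interval reached 0.10. S100a13 was at 0.68 (0.50 to 0.87) and S100a1 at 0.68 (0.64 to 0.71), and their difference was 0.01 (-0.18 to 0.19). S100a6 was at -0.03 (-0.86 to 0.79). The shortest class of genes had a median of 0.46. The 3 comparisons share libraries pairwise and are not independent.

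**Figure D4:**
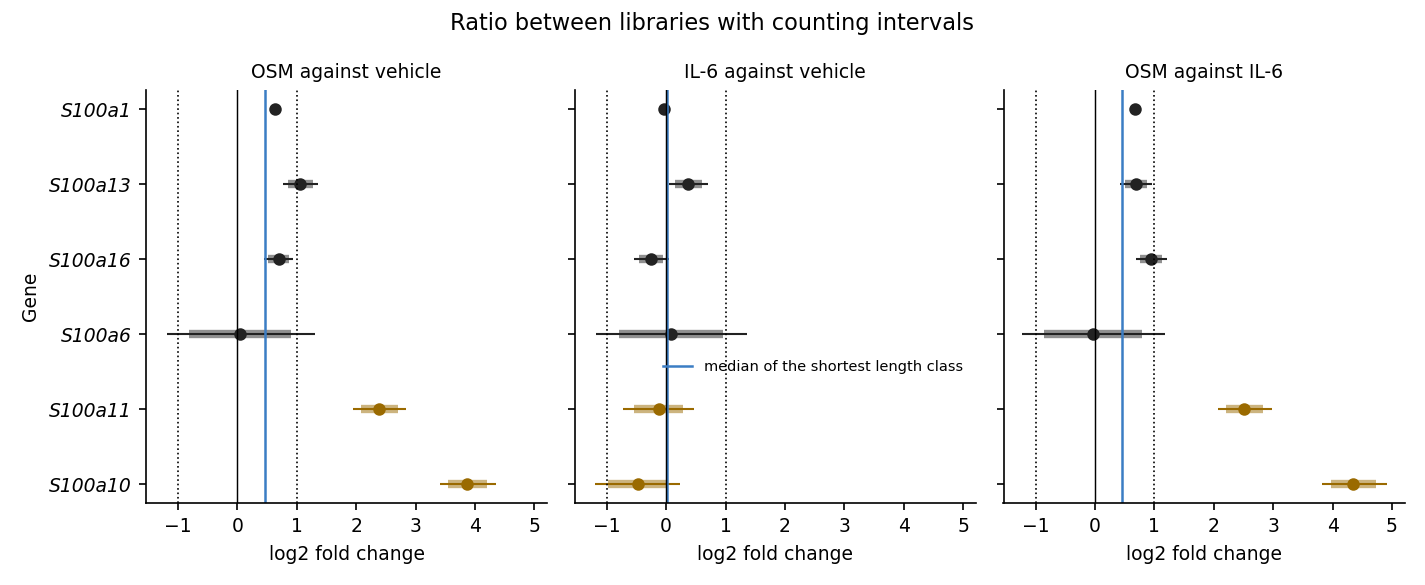
Log2 ratio (points) of each gene in the 3 pairs of libraries, with 95% counting intervals (thick bars) and the intervals with counts divided by 2 (thin lines), the blue line at the median of the shortest length class and dotted lines at 2-fold. S100a1, S100a13 and S100a16 lay between 0.64 and 1.06 with OSM against vehicle, below S100a11 at 2.39 and S100a10 at 3.86.

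Other S100 genes show how far the family spread. S100A10, the partner of annexin A2, and S100A11, a partner of annexin A1, are widely expressed. S100a10 had 82 counts with vehicle, 63 with IL-6 and 1412 with OSM, and its log2 ratio of OSM against vehicle was 3.86, with an interval from 3.54. S100a11 had 102, 100 and 630 counts, with a log2 ratio of 2.39 (2.08 to 2.70). Each was called higher with OSM, also with the counts divided by 2. With these genes included, S100a1 made up 93.6% of the summed FPKM of the S100 family with vehicle, 93.3% with IL-6 and 86.6% with OSM. The other S100 genes in the table had 0 counts in each library.

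Receptors and partners of S100 proteins were compared from lists chosen with results of these data known. Of 10 genes for receptors of released S100 proteins and their adaptors, 9 had a ratio with OSM against vehicle, of which 1 was called higher and 0 lower, beside 3.74% and 5.43% of all genes compared. That gene was Myd88, the adaptor of Toll-like receptors, with 673 counts with vehicle, 725 with IL-6 and 3177 with OSM (log2 ratio 2.00). Ager had 0 counts in each library. Tlr4 had 816, 980 and 681 counts, with a log2 ratio of -0.50 for OSM against vehicle, and Ticam1, another Toll adaptor, had 405, 404 and 411. The highest were Bsg, the basigin receptor bound by S100A9, at 653 FPKM with vehicle and 836 FPKM with OSM, and Cd36, a fatty acid transporter, at 332 and 211 FPKM. The list had a median log2 ratio of -0.16, against 0.00459 over all genes compared, and with IL-6 against vehicle 0 of 9 were called.

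Of 27 genes for intracellular partners, 23 had a ratio with OSM against vehicle, of which 2 were called higher and 3 lower, beside 3.74% and 5.43% of all genes compared. Anxa2, the annexin partner of S100A10, had 395 counts with vehicle, 334 with IL-6 and 6813 with OSM (log2 ratio 3.87), and Myh9, the nonmuscle myosin bound by S100A4, had 1120, 1002 and 2972 (1.17). The cardiac partners of S100A1 named here lay on the other side or near 0. Ryr2, the ryanodine receptor, had 22606, 23555 and 9264 counts (-1.53), and Ttn, titin, had 18901, 20398 and 7191 (-1.64). These are very long genes, whose length class had a median of -0.58. Minus that median the interval of Ryr2 ran from -0.98 to -0.91 and its call was lost, while Ttn remained called. Atp2a2, which encodes SERCA2a, had a log2 ratio of -0.37 and was not called, and Pln, its inhibitor phospholamban, was at -0.08. The chaperone partners Stip1 and Fkbp4 were at 0.34 and 0.26. Ncf1, of the phagocyte oxidase, had 12, 8 and 1 counts and was called lower, a call that was lost with the counts divided by 2. The median of the list was -0.02, and with IL-6 against vehicle 0 of 23 were called.

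Of 18 genes for other EF-hand calcium sensors, 14 had a ratio with OSM against vehicle, and 0 were called in either direction, beside 3.74% higher and 5.43% lower of all genes compared. Tnnc1, with 1290 FPKM with vehicle, 1339 with IL-6 and 2044 with OSM, was at 0.66. Capns1, the calpain small subunit, was at 0.53, and Calm3 was at 0.41. The list had a median of 0.43, beside a median of 0.26 for the length classes of its members. S100a1, at 0.64, lay near Tnnc1. With IL-6 against vehicle 0 of 14 were called.

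Markers of the cells in which the undetected members are usually found were low, with exceptions. Of 11 neutrophil markers 7 were at 0 in every library, among them Ly6g, Mpo and Elane, and their summed counts were 8 with vehicle, 8 with IL-6 and 13 with OSM, of which Mmp9 gave 10 with OSM. Fibroblast markers summed to 5.73, 6.07 and 6.63 CPM over 9 genes, of which 9, 8 and 6 were detected. Dcn gave 49, 48 and 131 of their counts, while Pdgfra gave 40, 18 and 34 and Col1a2 gave 14, 41 and 6. Col1a1, Postn and Tcf21 were at 0 with OSM. Glial markers summed to 17.4, 16.8 and 8.06 CPM, of which Erbb3 gave 394, 419 and 232 counts while Sox10 and Foxd3 were at 0 in each library. Macrophage markers summed to 23.7, 24.0 and 54.5 CPM over 11 genes. Of these, Cd68 gave 382, 448 and 1419 counts, Csf1r gave 187, 166 and 209, and Lyz2 gave 13, 4 and 31. Ptprc, Fcgr1 and the C1q genes C1qa, C1qb and C1qc were at 0 in each library. Adipocyte markers had 0, 0 and 2 counts and T cell markers 4 in each. Endothelial markers summed to 42.3, 44.2 and 47.1 CPM, and smooth muscle and pericyte markers to 35.9, 39.1 and 43.4 CPM. In such bulk libraries fewer cells of a type and less RNA per cell cannot be told apart. Their part in the low counts of S100a6 and S100a8 was not tested.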

How the data were processed

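RNA of ACMs was pooled per condition and sequenced as paired reads, 1 library each for vehicle, IL-6 and OSM. The authors deposited whole-number counts per gene, not normalized, and FPKM values for the same genes. Per the labels' processing notes, fastp, HISAT2 2.2.1, featureCounts 2.0.6 and edgeR 4.0.16 were used, with the genome mm39. The paper names another version of featureCounts, and neither gives the strand setting. The deposited FPKM is the count divided by gene length and by 1 constant per library (25296726 for vehicle, 27098375 for IL-6, 29867031 for OSM). No sample column was left unmatched (0 columns).

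TMM factors were computed for each pair of libraries with edgeR 4.0.16 in R 4.3.3. A ratio was formed where the counts of both libraries summed to 10 or more. The log2 ratio of scaled counts carries a 95% interval by the Clopper-Pearson method, and levels carry exact Poisson intervals. Differences between log2 ratios carry a normal interval from the counts. These intervals and the limit of 3 counts for a count of 0 cover counting error only, and reads carry no molecular identifiers. With 1 library per condition no test was run and no P-value is given. Calls were checked on simulated Poisson counts with known changes, without a length trend, paired counting or variation between preparations. Such counts follow the model of the intervals, so the check covers the calculation and not the departures seen in these libraries.

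Named genes were the 8 members, other S100 genes with at least 10 counts in a library, the called and up to 4 further highest genes of the receptor, partner and sensor lists, and, of the markers, those at 0 and up to 3 of the highest. Of these, 1 gene is not reported here. The genes nearest in pattern were to be named only for called members, and there were 0. Genes of the chromosome 3 cluster, and Socs3, were added as context. The members and lists were chosen with earlier results of these data known. A total of 11 alternatives were planned, and 1, the counts divided by 2, was added after the even counts were seen.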

Additional observations from a re-analysis of the deposited data

How the results depend on the processing

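Called members remained 0 in both directions in all 3 pairs under DESeq2 1.42.0 factors, library totals, the authors' FPKM, no filter, a minimum of 50 counts, an assumed coefficient of variation of 0.2 or 0.4, a prior count of 2, ratios minus the median of the length class, and counts divided by 2. With an interval wholly beyond 1.5-fold, 2 members were higher with OSM against vehicle (S100a1 and S100a13), beside 8.73% of all genes compared. Against IL-6, 2 members were higher with OSM (S100a1 and S100a16), beside 8.78%. By the point estimate beyond 2-fold, 1 was higher with OSM against vehicle (S100a13), beside 10.1% of all genes compared. Minus the median of the length class, the median ratio of the members fell to 0.20 with OSM against vehicle and 0.22 against IL-6. Under other scalings the S100a1 ratio of OSM against vehicle ran from 0.58 to 0.65, that of S100a13 from 0.99 to 1.06 and that of S100a16 from 0.63 to 0.70. The S100a6 ratio, within counting error of 0, ran from -0.02 to 0.05.

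With the counts divided by 2, an alternative chosen after seeing the data, all genes called numbered 337 higher and 487 lower with OSM against vehicle (581 and 844 otherwise), 43 and 66 with IL-6 (274 and 269) and 358 and 462 with OSM against IL-6 (659 and 843). With an assumed coefficient of 0.4 they were 272 and 272, 189 and 176, and 309 and 275. No paired analysis was possible because each condition has 1 library, and leaving out a replicate was not possible for the same reason. Depth limits S100a4, S100a8, S100a9 and S100b, which had 0 to 2 counts, and S100a6, with 23 to 28.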
